A study of Mus musculus with 6 samples.

Results

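The 10 genes examined here are genes whose products restrain macrophages or the lymphocytes they meet, read in sorted spleen macrophages from normal mice and from mice with T cell acute lymphoblastic leukemia (T-ALL). The 10 genes were taken by Entrez identifier from the 16058 identifiers of the files, and all 10 were listed in every library. They were Sirpa and Cd47, Havcr2 and Lgals9, Cd274 and Pdcd1lg2, Vsir, Pirb, Il10 and Tgfb1. RNA sequencing had been done on 6 libraries, 1 for each of 3 sorted subsets (Ly6chiF4/80lo, Ly6cloF4/80lo and Ly6cloF4/80hi) in each of 2 states. The T-ALL libraries came from C57BL/6 mice of 6 to 8 weeks, 15 days after each received 1000000 GFP+ leukemia cells without irradiation. The normal libraries came from C57BL/6 spleen at day 0. They are called normal by their titles, whereas the treatment text speaks of sorting from leukemia mice at both times, so whether the day 0 mice had received cells is not settled by the labels. No further allele or agent is named in the labels, and the origin of the leukemia is not described in the sources used here. Neither the pooling of mice nor the use of the same mice for several subsets is stated in the labels. Each p-value below therefore reflects only how far these sorted fractions scatter, which may be technical.

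Inhibitory receptors of myeloid cells carry or recruit tyrosine-based motifs that bind phosphatases and dampen phagocytosis and activation. SIRPα on a macrophage is engaged by CD47 on a target cell, which is known as a signal against being eaten. PD-L1 and PD-L2 engage PD-1 on T cells, galectin-9 is a described ligand of TIM-3, VISTA acts on T cells and myeloid cells, and IL-10 and TGF-β1 are secreted cytokines that restrain inflammation. Red pulp macrophages of the spleen, which clear aged red cells, are known for high SIRPα.

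Each library held an estimated 6770000 to 8810000 reads and listed 14225 to 14628 genes. Values are FPKM, fragments scaled by transcript length and by the mapped fragments of the library. That scaling allows levels to be set side by side between genes, while shifts common to all genes between libraries remain and are given below where they matter. The sort antigens followed the gates: Ly6c2 stood at 481.9 and 1405 FPKM in Ly6chiF4/80lo of normal and T-ALL mice and at most at 21.4 FPKM elsewhere. Adgre1, which encodes F4/80, stood at 529 and 234 FPKM in Ly6cloF4/80hi and at 47.3 to 86.7 FPKM elsewhere. The macrophage growth factor receptor gene Csf1r was present in all 6 libraries (218 to 1488 FPKM), but so were markers of other cells. Summed B cell markers (9 of 9 genes listed) ran from 1235 to 3664 FPKM, and summed neutrophil and granulocyte precursor markers (11 of 11) reached 44709 FPKM in T-ALL Ly6chiF4/80lo. Summed erythroid markers (9 of 9) reached 31214 FPKM in T-ALL Ly6cloF4/80hi, and in these bulk libraries fewer cells of a type and less RNA per cell cannot be told apart. Of the other summed lists, general macrophages and monocytes ran from 1806 to 13306 FPKM, classical monocytes from 126 to 2897 FPKM and patrolling monocytes from 467 to 1800.1 FPKM. Natural killer cells ran from 154 to 708 FPKM, plasmacytoid dendritic cells from 197 to 343 FPKM, and megakaryocytes and platelets from 13.4 to 55 FPKM.

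**Figure D1:**
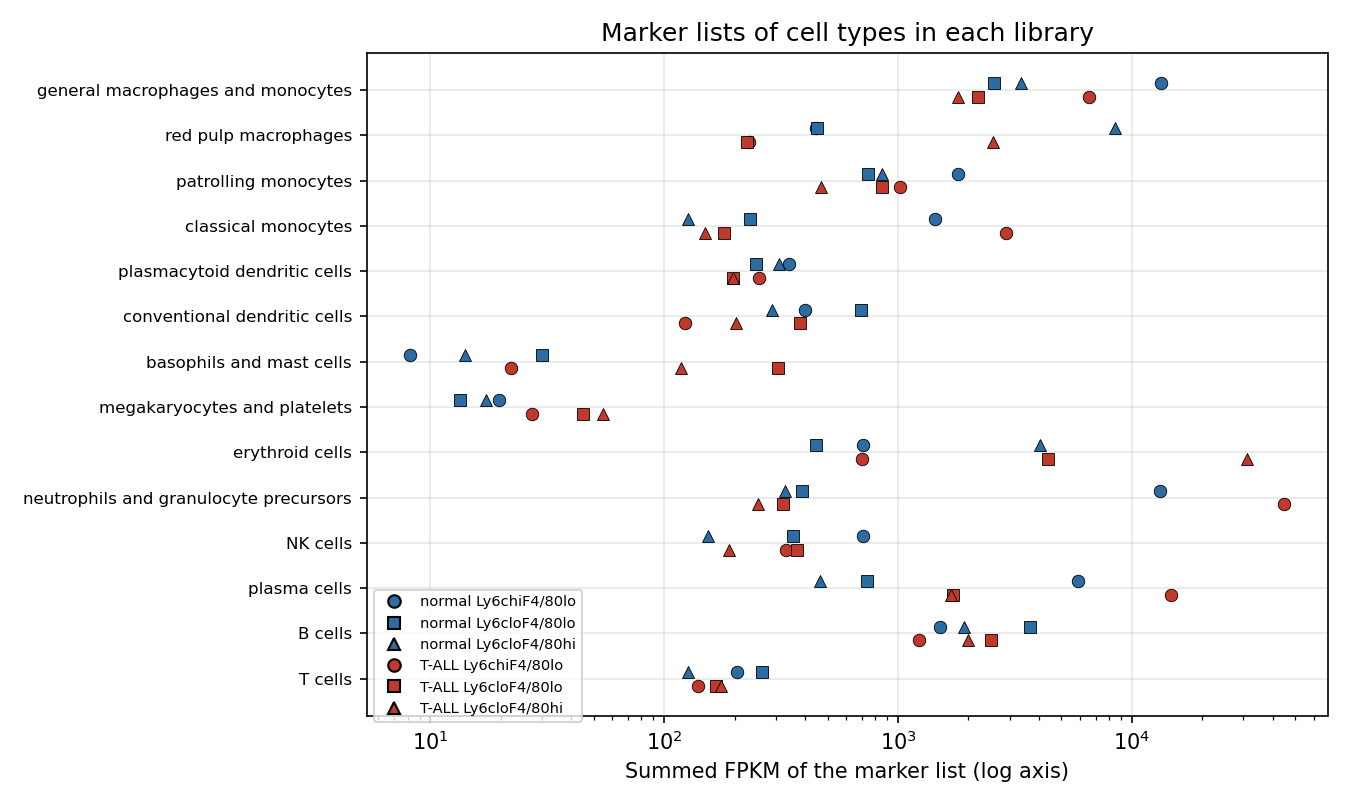
Summed FPKM (horizontal log axis) of the marker genes of 14 cell types, with 1 point per library (circle Ly6chiF4/80lo, square Ly6cloF4/80lo, triangle Ly6cloF4/80hi; blue normal, red T-ALL). Red pulp macrophage markers are highest in the Ly6cloF4/80hi libraries, and B cell and conventional dendritic cell markers are highest in the Ly6cloF4/80lo libraries within each state.

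Cd274 and Pdcd1lg2, which encode PD-L1 and PD-L2, lie next to each other on chromosome 19, and both had their highest values in Ly6cloF4/80lo. The 250 bases before the annotated start of each are shown because the pair shares that pattern. The sequences are from RefSeq (GRCm38.p6, + strand), at chr19:29367188-29367437 for Cd274 and chr19:29410669-29410918 for Pdcd1lg2. Capitals mark a match to GAAANNGAA on either strand, a motif of the kind that interferon regulatory factors bind.
Cd274: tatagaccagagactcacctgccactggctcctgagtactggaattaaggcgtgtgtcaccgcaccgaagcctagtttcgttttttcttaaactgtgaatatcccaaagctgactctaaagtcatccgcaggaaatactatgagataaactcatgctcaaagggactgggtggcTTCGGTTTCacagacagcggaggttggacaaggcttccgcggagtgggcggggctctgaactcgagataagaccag
Pdcd1lg2: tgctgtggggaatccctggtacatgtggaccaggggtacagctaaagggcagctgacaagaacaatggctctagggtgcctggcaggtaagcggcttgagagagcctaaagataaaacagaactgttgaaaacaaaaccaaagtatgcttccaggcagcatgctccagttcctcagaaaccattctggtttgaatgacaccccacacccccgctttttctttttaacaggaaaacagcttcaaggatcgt
The Cd274 window held 1 match, ending 67 bases before the start, and the Pdcd1lg2 window held 0. A second motif, TTCNNNGAA, of the kind that STAT factors bind, was in neither window. Of the 8 members with a window in the table, 2 (Cd274 and Lgals9) held GAAANNGAA and 0 held TTCNNNGAA, against 7.16% and 7.18% of 27025 promoters. The motifs and windows were chosen with the values and sequences in view, and a match describes letters only.

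Across the 10 genes the levels spanned a wide range. Cd47, Sirpa, Pirb and Lgals9 were the abundant members, with every library at 90.5 FPKM or more. Vsir, Havcr2 and Cd274 lay between 17.1 and 113 FPKM. Tgfb1 (4.05 to 8.31 FPKM), Pdcd1lg2 (2.67 to 8.67 FPKM) and Il10 (0.31 to 7.58 FPKM) were low in every library. At these depths the lowest Il10 value corresponds to about 3 reads and the highest to 74, while Pdcd1lg2 rested on 29 to 118 reads and Tgfb1 on 58 to 138.

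**Figure D2:**
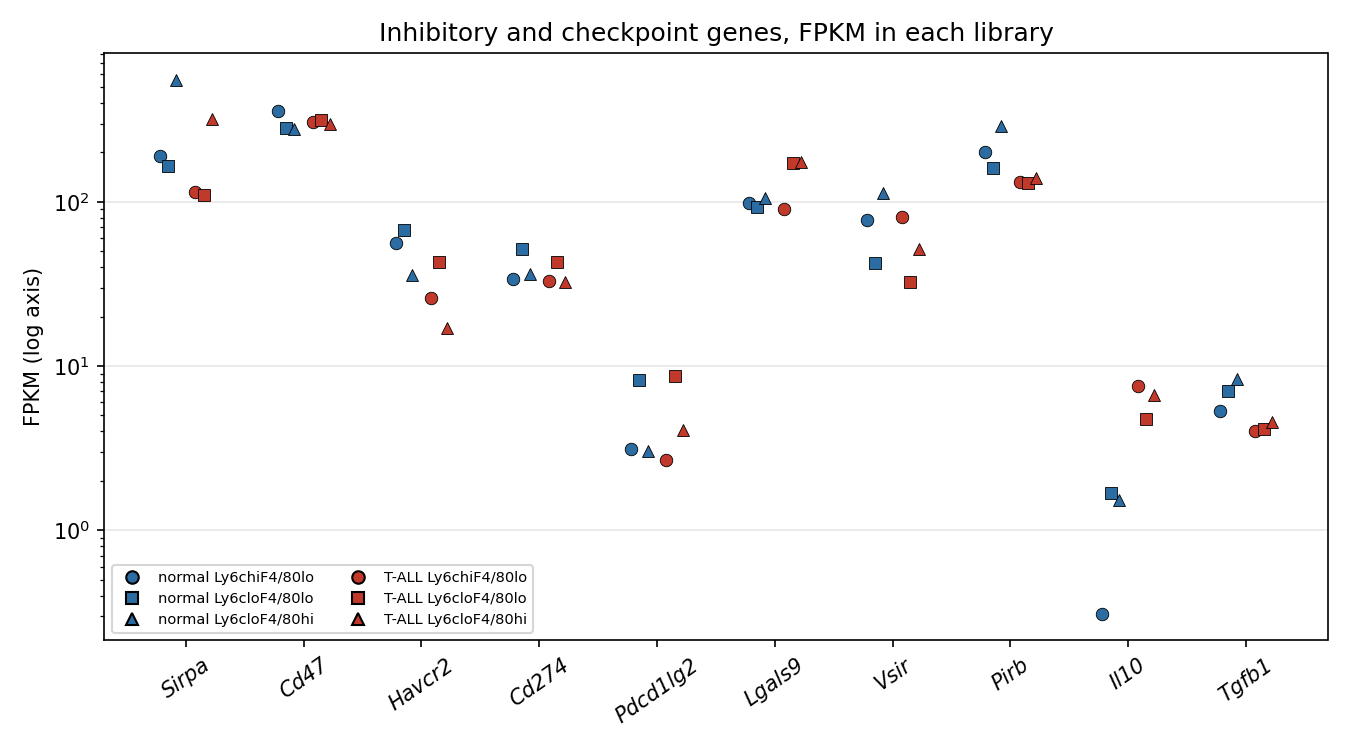
FPKM (vertical log axis) of the 10 genes in each of the 6 libraries, with 1 point per library (circle Ly6chiF4/80lo, square Ly6cloF4/80lo, triangle Ly6cloF4/80hi; blue normal, red T-ALL). Il10 is higher and Pirb and Tgfb1 are lower in all 3 T-ALL libraries than in any normal library, and Sirpa is highest in the Ly6cloF4/80hi library of each state. The share of all genes without such overlap of the states was not counted.

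Between states, Il10 rose in T-ALL while Sirpa and Havcr2 fell, and the other 7 genes did not pass. That is 1 of 10 higher and 2 of 10 lower, beside 8.20% higher and 3.94% lower of all 11616 genes tested (limma on log2(FPKM + 1) with subset as a block, 2 residual degrees of freedom, Benjamini-Hochberg adjusted p under 0.05). Counts from the lists of related genes below are to be read beside the share of all genes in the same comparison. The median difference of the members was -0.32 on that log2 scale and that of all genes -0.03. Il10 had higher values in T-ALL in all 3 subsets, and Sirpa, Havcr2, Cd274, Pirb and Tgfb1 had lower values in all 3. Of all genes tested, 27.9% were higher and 30.0% lower in all 3 subsets. The share of all genes whose normal and T-ALL libraries do not overlap was not counted. Such a lack of overlap in a single gene is therefore only described. An unpaired exact test of 3 libraries against 3 could not have gone below p = 0.1.

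**Figure D3:**
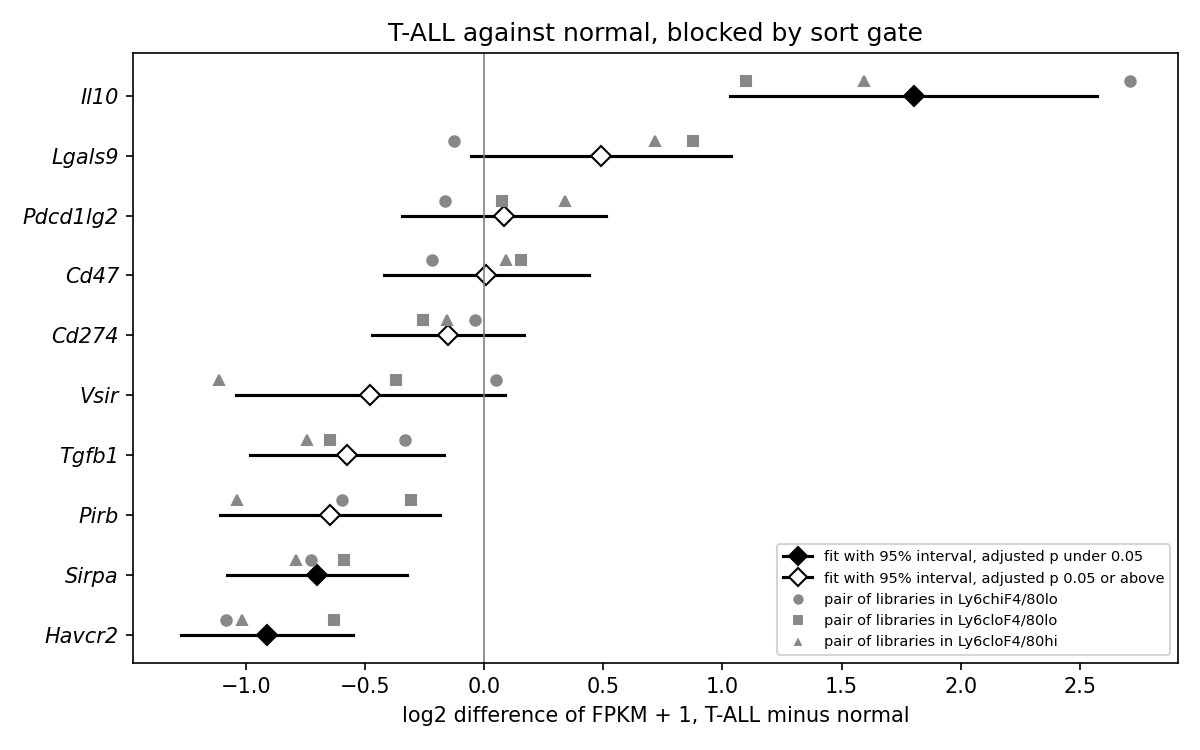
Difference of log2(FPKM + 1) between T-ALL and normal (horizontal axis) for the 10 genes, with the fitted value and its 95% interval (diamond and bar, filled where the adjusted p is under 0.05) and the difference in each subset (grey circle Ly6chiF4/80lo, square Ly6cloF4/80lo, triangle Ly6cloF4/80hi). Il10 lies to the right and Sirpa and Havcr2 to the left of 0 in all 3 subsets, and Lgals9, Pdcd1lg2, Cd47 and Vsir have subsets on either side.

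Sirpa encodes the phagocytosis-restraining receptor SIRPα. In normal mice it stood at 191, 166 and 555 FPKM in Ly6chiF4/80lo, Ly6cloF4/80lo and Ly6cloF4/80hi, and in T-ALL at 115, 110 and 321 FPKM. Every T-ALL library was below the normal library of its subset, although the states overlapped because Ly6cloF4/80hi was high in both. The log2 difference was -0.70 (SE 0.16, limma adjusted p = 0.0407), a ratio of T-ALL to normal of 0.602, 0.662 and 0.578 in the 3 subsets. Leaving out either library of a subset removed that pair from the state estimate, since the other was then fitted by its own subset term. Without the pair of Ly6chiF4/80lo, Ly6cloF4/80lo or Ly6cloF4/80hi the log2 was -0.69, -0.76 and -0.66. The call was lost in each case, with fewer residual degrees of freedom. It was also lost without a filter on low values (0.074) and without the subset block (0.582).

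Differences in Sirpa between Ly6cloF4/80hi and the other subsets were larger in size than that between states. It was higher in Ly6cloF4/80hi than in Ly6chiF4/80lo by a log2 of 1.5 (SE 0.19, limma adjusted p = 0.00663). This was the 1 member of 10 called higher there, and 0 were called lower, beside 7.10% higher and 5.68% lower of all genes. The call held under all 13 alternatives run (adjusted p 0.00461 to 0.0456). Against Ly6cloF4/80lo the log2 difference was 1.64 (SE 0.19, limma adjusted p = 0.0103), with 1 of 10 members higher (Sirpa) and 1 lower (Havcr2), beside 2.66% and 0.904% of all genes. That call was lost without normal Ly6cloF4/80lo (log2 1.55, adjusted p = 0.0531) or without normal Ly6cloF4/80hi (1.57, 0.0767). Ly6cloF4/80lo and Ly6chiF4/80lo did not differ in Sirpa beyond their spread (log2 -0.13, 95% interval -0.60 to 0.33).

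The level of Sirpa moved with red pulp macrophage markers. Summed over 8 of 8 listed genes, that list stood at 446, 449 and 8491 FPKM in the normal libraries and 230.3, 227 and 2541 FPKM in those of T-ALL Ly6chiF4/80lo, Ly6cloF4/80lo and Ly6cloF4/80hi. In T-ALL 7 of the 8 passed as lower, none was at 0 in any library, and their part in the Sirpa difference was not tested. Over the 6 libraries the genes most like Sirpa among 7725 candidates were Adap2 (Pearson r = 0.998), the receptor kinase gene Axl (0.997) and the haptoglobin-hemoglobin scavenger receptor gene Cd163 (0.996). These correlations are descriptions over 6 libraries that share 3 subsets and 2 states, and 184 candidates had an r over 0.95.

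Cd47, which encodes the ligand of SIRPα and is expressed on most cells, varied little. It stood at 358, 284 and 279 FPKM in the normal libraries and 308, 316 and 298 FPKM in those of T-ALL, with the normal and T-ALL libraries interleaved. The log2 difference between states was 0.01 (95% interval -0.42 to 0.44, limma adjusted p = 0.976), and its sign turned after median-ratio rescaling (-0.002) and quantile normalization (-0.229). No subset comparison passed (log2 -0.20 to -0.05). The 15 other genes of the SIRPα and CD47 axis gave 0 calls of 15 between states (median log2 -0.28).

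Between subsets, some genes of that axis were lower in both Ly6clo subsets than in Ly6chiF4/80lo. Of the 15, 5 were lower and 0 higher in Ly6cloF4/80hi against Ly6chiF4/80lo. They included Itgam, a subunit of the phagocytic integrin Mac-1 (160 and 105 FPKM in normal and T-ALL Ly6chiF4/80lo against 14.6 and 15.4 FPKM; log2 -3.03, SE 0.22, limma adjusted p = 0.00108). Sirpb1c, a relative of Sirpa that shares sequence with other family members (-1.91, adjusted p = 0.0146), and Slamf7, a receptor described in the uptake of blood cells (-1.51, 0.0125), were also lower. Qpctl, the glutaminyl cyclase that modifies CD47, was lower too (-1.27, 0.0363). In Ly6cloF4/80lo, where Sirpa was not raised, 2 of 15 were lower than in Ly6chiF4/80lo and 0 higher: Itgam (-1.65, limma adjusted p = 0.0184) and Qpctl (-1.43, 0.046). Ly6cloF4/80hi against Ly6cloF4/80lo gave 1 of 15 lower, Itgam (-1.38, limma adjusted p = 0.0289), and 0 higher.

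Havcr2 encodes TIM-3, an inhibitory receptor of T cells, dendritic cells and macrophages. It stood at 56.5, 67.2 and 35.7 FPKM in the normal libraries and 26.1, 43.0 and 17.1 FPKM in those of T-ALL, in the order Ly6chiF4/80lo, Ly6cloF4/80lo and Ly6cloF4/80hi. Each subset was lower in T-ALL, at a ratio to normal of 0.462, 0.640 and 0.479. The log2 difference was -0.91 (SE 0.15, limma adjusted p = 0.0214). The call was lost when either Ly6cloF4/80hi library was left out (log2 -0.86), which removes that pair from the state estimate. Without the Ly6chiF4/80lo pair (-0.83) it lay at the threshold, lost without the normal library and kept without the T-ALL library. It was also lost without a filter on low values (0.0539) and without the subset block (0.293).

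Havcr2 was lowest in Ly6cloF4/80hi in each state. Against Ly6cloF4/80lo the log2 difference was -1.09 (SE 0.18, limma adjusted p = 0.0339). Leaving out any of the 4 libraries of these subsets ended that call: normal Ly6cloF4/80lo (log2 -1.30, adjusted p = 0.112), normal Ly6cloF4/80hi (-1.17, 0.138), T-ALL Ly6cloF4/80lo (-0.88, 0.154) and T-ALL Ly6cloF4/80hi (-1.01, 0.0855). It was also lost without a filter on low values (0.0855) and with a plain prior (0.0518). Against Ly6chiF4/80lo the difference of -0.62 did not pass (adjusted p = 0.0796), except after median-ratio rescaling (log2 -0.73, 0.0476). Conventional dendritic cells are also known for TIM-3, and their summed markers (7 of 7 listed, none at 0) were lower in T-ALL in every subset too. They stood at 398, 696 and 289 FPKM in the normal libraries and 123, 380 and 204 FPKM in those of T-ALL, and 4 of 7, among them Flt3 and Clec9a, passed as lower in T-ALL. Their part in the Havcr2 difference was not tested. The genes most like Havcr2 were the acid amidase gene Naaa (Pearson r = 0.999), the lysosomal transcription factor gene Tfeb (0.995) and the repressor gene Etv6 (0.988).

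Lgals9, which encodes galectin-9, gave no call. It stood at 98.8, 93.3 and 105 FPKM in the normal libraries and 90.5, 172 and 174 FPKM in those of T-ALL, so T-ALL was higher in Ly6cloF4/80lo and Ly6cloF4/80hi and slightly lower in Ly6chiF4/80lo. The log2 difference was 0.49 (95% interval -0.06 to 1.03, limma adjusted p = 0.176). Whether the subsets differ in this change could not be tested with 1 library per subset and state. Of 6 tested other TIM and galectin genes 1 fell between states: Timd4, which encodes the phosphatidylserine receptor TIM-4 of resident macrophages. It went from 4.16, 4.68 and 39.6 FPKM in normal libraries to 1.38, 2.48 and 22.4 FPKM in T-ALL (log2 difference -0.87, SE 0.16, limma adjusted p = 0.0265). Timd4 was also higher in Ly6cloF4/80hi than in Ly6chiF4/80lo (log2 3.14, SE 0.20, adjusted p = 0.000749). Lgals3bp, which encodes a galectin-binding glycoprotein, was higher there as well (1.11, adjusted p = 0.0371), so 2 of 6 were higher and 0 lower.

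Among the genes of the PD-1 ligands, Pdcd1lg2 passed between subsets and neither passed between states. Pdcd1lg2 (PD-L2) stood at 3.11, 8.19 and 3.03 FPKM in the normal libraries and 2.67, 8.67 and 4.09 FPKM in those of T-ALL Ly6chiF4/80lo, Ly6cloF4/80lo and Ly6cloF4/80hi. The Ly6cloF4/80lo libraries were the highest in both states. Against Ly6chiF4/80lo the log2 difference was 1.28 (SE 0.22, limma adjusted p = 0.0326). This was the 1 member of 10 called higher, with 0 lower, beside 2.68% higher and 2.05% lower of all genes. The median of all genes in this comparison was 0.19, and median-ratio rescaling brought it to 0.01, so differences here are to be read against that shift. With that rescaling Pdcd1lg2 had a log2 of 1.11 and did not pass (adjusted p = 0.0513), nor did it after quantile normalization (1.05, 0.0609) or without a filter on low values (0.0731). It also did not pass without normal Ly6chiF4/80lo (1.46, 0.0577), normal Ly6cloF4/80lo (1.27, 0.199), T-ALL Ly6chiF4/80lo (1.10, 0.146) or T-ALL Ly6cloF4/80lo (1.29, 0.119). Ly6cloF4/80hi against Ly6cloF4/80lo gave -1.06 (limma adjusted p = 0.0567).

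Cd274 (PD-L1) was several-fold more abundant and less variable, at 33.8, 51.5 and 36.3 FPKM in the normal libraries and 32.8, 42.9 and 32.4 FPKM in those of T-ALL. Here too the Ly6cloF4/80lo library was the highest of each state, by 0.49 on the log2 scale over Ly6chiF4/80lo (95% interval 0.10 to 0.87, limma adjusted p = 0.134). Between states the log2 difference was -0.15 (95% interval -0.47 to 0.17, adjusted p = 0.44), and that of Pdcd1lg2 was 0.08 (-0.35 to 0.51, adjusted p = 0.765). On the log2(FPKM + 1) scale these intervals lie within a factor of 2 either way, but the added 1 shrinks differences of a gene as low as Pdcd1lg2. From its estimated reads the ratio of T-ALL to normal was 0.852 (exact 95% interval 0.507 to 1.42) in Ly6chiF4/80lo. It was 1.06 (0.806 to 1.39) in Ly6cloF4/80lo and 1.35 (0.883 to 2.09) in Ly6cloF4/80hi, with counting error only. Markers of B cells and conventional dendritic cells, which also carry PD-1 ligands, were highest in Ly6cloF4/80lo as well. The summed B cell list stood at 1512, 3664 and 1920 FPKM in the normal libraries and 1235, 2497 and 2001 FPKM in those of T-ALL, with no gene at 0, and the part of these cells was not tested. The genes most like Pdcd1lg2 were Cep43 (Pearson r = 0.994), Zfp553 (0.992) and Tmem243 (0.990).

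In the interferon gamma route to PD-L1, 0 of 12 tested genes were called between states (median log2 -0.26). Jak2, a kinase of that route, was the 1 gene called between subsets. It was higher in Ly6cloF4/80lo (14.6 and 9.93 FPKM in normal and T-ALL) than in Ly6chiF4/80lo (5.54 and 5.25 FPKM), with a log2 difference of 1.03 (SE 0.20, limma adjusted p = 0.0476). Among 13 tested other B7 family and checkpoint ligand genes, 3 fell and 1 rose in T-ALL, beside 3.94% and 8.20% of all genes. Cd80 fell from 5.58, 16.0 and 16.2 FPKM in normal libraries to 2.49, 6.67 and 5.21 FPKM in T-ALL (log2 difference -1.18, SE 0.17, adjusted p = 0.0158). Cd86 fell by 0.90 (SE 0.18, adjusted p = 0.0306) and Icosl, the ligand of ICOS, by 0.97 (0.24, 0.0498). CD80 and CD86 are the costimulatory ligands of CD28 and CTLA-4. Hmgb1, a nuclear protein that is also a described ligand of TIM-3, rose by 0.85 (SE 0.18, adjusted p = 0.0343).

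Between subsets the same list gave 5 higher and 1 lower of 13 in Ly6cloF4/80hi against Ly6chiF4/80lo. Cd86 was higher there (225 and 92.7 FPKM against 23.7 and 12.1 FPKM, normal and T-ALL; log2 3.02, SE 0.22, limma adjusted p = 0.00107). So were Tnfrsf14, the receptor HVEM that engages BTLA (1.76, adjusted p = 0.00628), and Icosl (1.25, 0.0414), while the galectin-1 gene Lgals1 was lower (-1.27, 0.00864). In Ly6cloF4/80lo against Ly6chiF4/80lo 2 of 13 were higher, Icosl (1.71, adjusted p = 0.0324) and Cd80 (1.25, 0.0314), and 2 were lower, Lgals1 (-1.33, 0.0184) and Lgals3 (-1.29, 0.0415). Ly6cloF4/80hi against Ly6cloF4/80lo gave 2 of 13 higher, Cd86 (1.97, adjusted p = 0.00815) and Tnfrsf14 (1.15, 0.0492), and 0 lower.

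**Figure D4:**
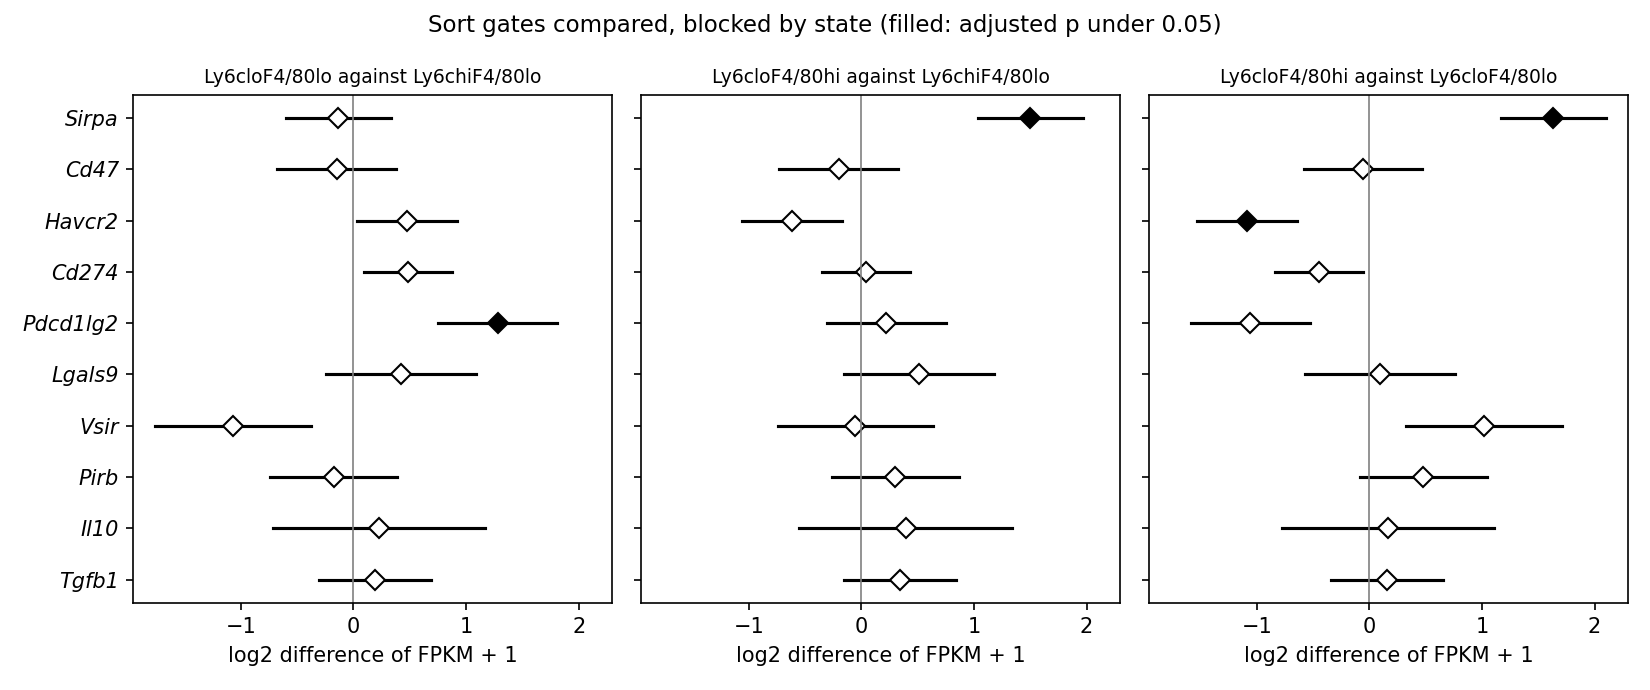
Difference of log2(FPKM + 1) between sorted subsets (horizontal axis, 1 panel per comparison) for the 10 genes, with 95% intervals, filled where the adjusted p is under 0.05. Sirpa is higher in Ly6cloF4/80hi than in either other subset, Pdcd1lg2 is higher in Ly6cloF4/80lo than in Ly6chiF4/80lo, and Havcr2 is lower in Ly6cloF4/80hi than in Ly6cloF4/80lo.

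Vsir, which encodes VISTA, did not pass in any comparison of subsets or states as fitted. It stood at 77.7, 42.4 and 113 FPKM in the normal libraries and 80.4, 32.5 and 51.4 FPKM in those of T-ALL. The lowest value of each state was in Ly6cloF4/80lo, while the highest was Ly6cloF4/80hi in normal and Ly6chiF4/80lo in T-ALL. Ly6cloF4/80lo against Ly6chiF4/80lo gave a log2 of -1.07 (SE 0.29, limma adjusted p = 0.088). That difference passed in the 4 libraries of these subsets alone (limma adjusted p = 0.0326), with the same log2. Leaving out either Ly6cloF4/80hi library rested on the same 4 libraries, since the other was then fitted by its own subset term. It is therefore not a separate check. The difference of 1.02 between Ly6cloF4/80hi and Ly6cloF4/80lo (adjusted p = 0.124) passed without T-ALL Ly6cloF4/80hi (1.49, 0.0273). Between states the log2 difference was -0.48 (95% interval -1.04 to 0.09, adjusted p = 0.196). Among the genes most like Vsir were the ubiquitin ligase gene Pja2 (Pearson r = 0.981) and the autophagy gene Map1lc3a (0.973).

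Pirb encodes PIR-B, the inhibitory paired immunoglobulin-like receptor that recognises class I molecules. It read 201, 160.3 and 289 FPKM in the normal libraries and 132, 129 and 140.0 FPKM in those of T-ALL, so every normal library was above every T-ALL library. The log2 difference was -0.65 (95% interval -1.11 to -0.19, limma adjusted p = 0.071) and did not pass, except after quantile normalization (-0.83, adjusted p = 0.0488). Its activating relative Pira2 fell from 25.6, 29.6 and 186 FPKM in normal libraries to 13.7, 17.1 and 72.7 FPKM in T-ALL (log2 difference -0.99, SE 0.16, adjusted p = 0.0214). Pira2 was also higher in Ly6cloF4/80hi than in Ly6chiF4/80lo (log2 2.57, SE 0.20, adjusted p = 0.00126). Pirb and the Pira genes are near-identical over much of their length, and 2 of the 9 paired receptor genes sought were read here, so the split of reads between them is uncertain. The genes most like Pirb were Mpv17 (Pearson r = 0.998), Pik3c2a (0.995) and Cyp20a1 (0.992). Of 21 other inhibitory receptor genes of myeloid cells 1 fell between states and 0 rose: Clec12a, a lectin receptor for dead cells (log2 -0.66, SE 0.16, adjusted p = 0.0461). Of all genes, 3.94% fell and 8.20% rose.

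The same list was also compared between subsets. Of the 21, 2 were higher and 4 lower in Ly6cloF4/80hi against Ly6chiF4/80lo. Siglece, a sialic acid receptor, stood at 238 and 117 FPKM against 22.6 and 29.2 FPKM in normal and T-ALL (log2 2.65, SE 0.43, limma adjusted p = 0.0161). Cd200r1, the receptor of CD200, stood at 34.3 and 20.1 FPKM against 5.22 and 4.53 FPKM (2.22, SE 0.22, adjusted p = 0.00326). Ceacam1 (log2 -3.39, adjusted p = 0.00318) and Fcgr2b, the inhibitory Fc receptor (-2.08, 0.00633), were lower. In Ly6cloF4/80lo against Ly6chiF4/80lo 3 of 21 were higher and 4 lower. Siglecg, a receptor best known from B cells, was higher (1.58, adjusted p = 0.0188), and Cd33 (-2.03, 0.0314), Clec12a (-1.71, 0.0122) and Lilrb4a (-1.64, 0.0266) were lower. Of the 21, 4 were higher and 1 lower in Ly6cloF4/80hi against Ly6cloF4/80lo. Siglece (2.32, limma adjusted p = 0.049), Clec4a2 (1.95, 0.0303) and Cd200r1 (1.93, 0.00986) were among the higher and Ceacam1 was the lower (-1.92, 0.0397).

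Il10 showed the largest difference between states among the 10 genes. It stood at 0.31, 1.68 and 1.53 FPKM in the normal libraries and 7.58, 4.74 and 6.65 FPKM in those of T-ALL Ly6chiF4/80lo, Ly6cloF4/80lo and Ly6cloF4/80hi. Every T-ALL library was above every normal library. The log2 difference was 1.80 (SE 0.32, limma adjusted p = 0.0241), and with a pseudocount of 0.1 it was 2.57. The pseudocount of 1 understates the change of a gene this low. From the estimated reads, the ratio of T-ALL to normal was 24.2 in Ly6chiF4/80lo (3 against 65 reads, exact 95% interval 7.92 to 120). It was 2.82 (1.6 to 5.21) in Ly6cloF4/80lo and 4.37 (2.49 to 8.2) in Ly6cloF4/80hi, and these intervals cover counting error only. The call was lost when either Ly6cloF4/80hi library was left out (log2 1.91), which removes that pair from the state estimate. It was also lost without a filter on low values (0.0625) and without the subset block (0.075). Subsets did not differ in Il10 beyond their spread (log2 0.17 to 0.39).

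Plasma cell markers were also higher in T-ALL in every subset, and plasma cells can make this cytokine. Their summed level (7 of 7 listed, none at 0) was 5866, 734 and 463 FPKM in the normal libraries and 14684, 1723 and 1678 FPKM in those of T-ALL, and 6 of 7 passed as higher in T-ALL. Ly6chiF4/80lo had the most plasma cell marker signal in both states. Its Il10 was the lowest of the normal libraries, at 0.31 FPKM, and the highest of those of T-ALL, at 7.58 FPKM. Markers of basophils and mast cells (5 of 5 listed, none at 0), other known sources, went from 8.2, 30.1 and 14.1 FPKM in normal libraries to 22.1, 306 and 119 FPKM in T-ALL, and 3 of 5 passed as higher. The part of these cells in the Il10 difference was not tested. The genes most like Il10 were the late endosome gene Rab9 (Pearson r = 0.995), Nmral1 (0.990) and Cars2 (0.989).

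The receptor of this cytokine went the other way. Il10ra, its ligand-binding chain, fell from 202, 176 and 188 FPKM in normal libraries to 80.7, 114 and 79.3 FPKM in T-ALL (log2 difference -1.06, SE 0.19, limma adjusted p = 0.0242). Every T-ALL library was below every normal library. Il10rb, the shared second chain, went from 86.8, 92.0 and 171 FPKM in normal libraries to 65.7, 74.0 and 92.4 FPKM in T-ALL and did not pass (-0.53, adjusted p = 0.0839). Il10ra was the 1 gene of 9 tested in the IL-10 list called between states, beside 3.94% lower and 8.20% higher of all genes. Between subsets, Maf, a transcription factor that drives Il10 in T cells and macrophages, was higher in Ly6cloF4/80hi than in Ly6chiF4/80lo (30.4 and 5.65 against 1.86 and 0.41 FPKM; log2 2.85, SE 0.42, adjusted p = 0.0113). Nfil3 (-1.68, adjusted p = 0.00279) and the feedback inhibitor gene Socs3 (-2.00, 0.0211) were lower there.

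Tgfb1, which encodes TGF-β1, stood at 5.36, 7.09 and 8.31 FPKM in the normal libraries and 4.05, 4.16 and 4.55 FPKM in those of T-ALL. Every T-ALL library was below every normal library, but the log2 difference of -0.58 did not pass (95% interval -0.98 to -0.17, limma adjusted p = 0.0699; 0.0635 to 0.245 over 13 alternatives). From the estimated reads the ratio was 0.753 (exact 95% interval 0.53 to 1.06) in Ly6chiF4/80lo, 0.588 (0.435 to 0.791) in Ly6cloF4/80lo and 0.545 (0.411 to 0.72) in Ly6cloF4/80hi. Subsets did not differ beyond their spread (log2 0.15 to 0.34).

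Of 18 tested other TGF-β genes 3 fell between states and 0 rose, beside 3.94% and 8.20% of all genes. Tgfbr1, the type I receptor, fell from 36.5, 18.2 and 31.2 FPKM in normal libraries to 14.5, 14.1 and 13.6 FPKM in T-ALL (log2 difference -0.92, SE 0.21, limma adjusted p = 0.0418). Nrros, which anchors latent TGF-β1 on myeloid cells, fell from 147, 163 and 203 FPKM in normal libraries to 80.3, 114 and 107 FPKM in T-ALL (-0.77, SE 0.16, adjusted p = 0.0343). Tgif1, a repressor of TGF-β responses, fell from 41.3, 44.4 and 51.8 FPKM in normal libraries to 17.0, 25.7 and 23 FPKM in T-ALL (-1.04, SE 0.15, adjusted p = 0.0155). These are a receptor, a protein that presents the cytokine and a repressor of its responses. Of 12 tested other immunosuppressive enzymes and mediators 1 fell and 0 rose: Ptgs2, the inducible cyclooxygenase, from 1.83, 6.43 and 4.08 FPKM in normal libraries to 0.47, 0.67 and 0.93 FPKM in T-ALL (-1.5, SE 0.27, adjusted p = 0.0247). Il4i1, an amino acid oxidase that restrains T cells, was higher in Ly6cloF4/80lo than in Ly6chiF4/80lo (129 and 98.1 FPKM against 36.3 and 23.5 FPKM, normal and T-ALL; log2 1.91, SE 0.25, adjusted p = 0.0184). Il1rn, the interleukin 1 receptor antagonist, was lower there (-1.21, adjusted p = 0.0261). In Ly6cloF4/80hi against Ly6chiF4/80lo the adenosine receptor genes Adora2b (-1.92, adjusted p = 0.0307) and Adora2a (-1.23, 0.032) and Il1rn (-1.78, 0.00377) were lower and 0 of 12 were higher.

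Within single subsets 1 library stands for each state, so only sizes can be given. Differences of at least 2-fold on the (FPKM + 1) scale were counted where either library of a subset reached 5 FPKM, which 9 members met in each subset. In Ly6chiF4/80lo 1 member was past 2-fold higher (Il10) and 1 lower (Havcr2), beside 7.51% and 4.46% of all genes. In Ly6cloF4/80lo 0 members were, beside 5.69% and 1.53%. In Ly6cloF4/80hi 1 was higher (Il10) and 3 lower (Havcr2, Vsir and Pirb), beside 10.8% and 6.55%. Whether Ly6cloF4/80hi differs from the other subsets in this count was not tested.

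Receptors through which lymphocytes receive these signals were also read in the sorted fractions. Of 12 such genes 1 fell between states, Icos (1.64, 6.77 and 8.90 FPKM in normal libraries and 0.82, 3.65 and 4.44 FPKM in T-ALL libraries; log2 -0.71, SE 0.17, limma adjusted p = 0.0478), and 0 rose. Of all genes, 3.94% fell and 8.20% rose. Lag3 was higher in Ly6cloF4/80hi than in Ly6cloF4/80lo (69.6 and 47.9 against 17.5 and 15.6 FPKM in normal and T-ALL; log2 1.75, SE 0.17, adjusted p = 0.00556). Tigit was lower in Ly6cloF4/80hi than in Ly6chiF4/80lo (13.3 and 9.78 against 22.8 and 58.4 FPKM; -1.6, adjusted p = 0.045). Cd28 (-2.29, adjusted p = 0.00935) and Ctla4 (-1.72, 0.017) were lower there too, and in all 4 of 12 were lower and 2 higher. Summed T cell markers (13 of 13 listed) stood at 204, 262 and 127 FPKM in the normal libraries. In those of T-ALL they stood at 140, 166 and 176 FPKM, in the order Ly6chiF4/80lo, Ly6cloF4/80lo and Ly6cloF4/80hi. In Ly6cloF4/80hi, Cd3e was at 2.22 FPKM in normal and 10.8 FPKM in T-ALL. Cd3g was at 3.29 and 13.6 FPKM there, and Tcf7 at 2.6 and 15.4 FPKM. Cd2, Cd4 and Cd8a were lower in T-ALL there and the other listed genes higher, on 1 library per state. The part of T cells in the receptor values above was not tested.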

How the data were processed

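Libraries of 3 sorted subsets in 2 states, 1 each, were analysed from the FPKM values deposited by the authors. The submitters' processing notes name Bowtie2 2.2.5 and RSEM. RSEM's version, the genome build and the annotation were not given in the sources used here. Per the labels' protocols, a QIAGEN kit was used for extraction and an Illumina HiSeq for sequencing. Genes absent from a library's list were set to 0 FPKM. Symbols came from a RefSeq table (GRCm38.p6) for 16017 of 16058 identifiers (99.7%), used for names and promoter sequences.

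Values were tested as log2(FPKM + 1) for the 11616 genes that reached 1 FPKM in 2 or more libraries, with limma 3.58.1 and statmod 1.5.0 in R 4.3.3. The model had subset and state terms, a trended and robust prior and 2 residual degrees of freedom (median total 6.23). Tests were two-sided, with Benjamini-Hochberg adjustment over all tested genes. Depth was estimated from the spacing of low FPKM values, with 42 bases taken off each annotated length, in Python 3.11.15 with numpy 2.4.6 and pandas 2.3.3, and figures used matplotlib 3.10.9. The fit and the depth estimate were tested on simulated data. There, a fit of this size missed changes near 2-fold and found large ones, so a gene that did not pass is not shown to be even between groups. The simulated data held fewer changed genes than passed between states here, which makes the threshold stricter. That limit is therefore not the one of this fit, where Sirpa and Havcr2 passed between states at less than 2-fold.

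The members, the 10 pathway and 14 marker lists and the tests were chosen with earlier results of these data known. Named genes were the members, the sort antigens Ly6c2 and Adgre1, up to 4 genes per pathway list and comparison that passed with at least 5 FPKM in 1 library, and the 3 most correlated genes (at least 10 FPKM in 1 library) of each member with at least 5 FPKM and a log2 range of at least 1. Csf1r, Il10rb, Flt3, Clec9a, Cd3e, Cd3g, Tcf7, Cd2, Cd4 and Cd8a were named outside this rule, after their values were seen. 1 gene that the rule names is not reported here. Alternatives were a pseudocount of 0.1, no filter, a 5 FPKM minimum on the mean, rescaling by median ratios, quantile normalization, a plain prior, no block, the 4 libraries of a subset pair, and each library left out in turn. They were run for the members and not for the genes of the lists.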

Additional observations from a re-analysis of the deposited data

Results flagged for a closer look

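4 genes had values that moved one way between states in the Ly6chiF4/80lo pair of libraries and the other way in both other pairs. Each direction rests on 1 library per state, and the difference between subsets was not tested. Lgals9 had a log2 difference of T-ALL against normal of -0.13 in Ly6chiF4/80lo, 0.88 in Ly6cloF4/80lo and 0.72 in Ly6cloF4/80hi. Vsir had 0.05, -0.37 and -1.12 in the same order. Pdcd1lg2 had -0.16, 0.07 and 0.34, on 29 to 118 estimated reads. Cd47 had -0.22, 0.15 and 0.09.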

How the results depend on the processing

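Of 10 members, 3 were called between states, beside 1410 of all 11616 genes tested. All genes called fell to 370 of 16058 with no filter and to 161 of 11616 with no subset block. They were 1290 after quantile normalization and also fewer with any 1 library left out. With no filter on low values 0 were called and with no subset block 0 were, while quantile normalization added Pirb, and 0 to 2 were called when 1 library was left out. In Ly6cloF4/80lo against Ly6chiF4/80lo 549 of all 11616 genes were called. That became 156 of 16058 with no filter and 413 of 8428 with a mean of at least 5 FPKM. It was 441 after median-ratio rescaling and 400 after quantile normalization. Among the members the 1 call became 0 with no filter, a mean of at least 5 FPKM (where Pdcd1lg2 and Il10 were not tested), median-ratio rescaling or quantile normalization. It became 2 (Pdcd1lg2 and Vsir) in the 4 libraries alone, and 0 to 2 when 1 library was left out. In Ly6cloF4/80hi against Ly6chiF4/80lo median-ratio rescaling gave 2 (Sirpa and Havcr2), beside 1423 of all 11616 genes, where the main fit called 1485. Between Ly6cloF4/80hi and Ly6cloF4/80lo the main fit called 414 of all 11616 genes. There, 173 of 16058 were called with no filter and 372 of 11616 with a plain prior. In Ly6cloF4/80hi against Ly6cloF4/80lo the 2 calls became 1 (Sirpa) with no filter or a plain prior, and 0 to 2 when 1 library was left out. Within Ly6cloF4/80lo a minimum of 1 FPKM brought 1 member past 2-fold (Il10). A library left alone in its subset was fitted by its own subset term and added nothing to the state difference or its spread. Leaving out either library of a pair therefore gave the same state log2, so these fits are 1 check per subset. For a comparison of subsets, leaving out a library of the remaining subset rested on the same 4 libraries as that pair of subsets alone. A library left alone in a compared subset was assumed to vary like the others.

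Small log2 differences changed sign. For Cd47 between states the value was -0.002 after median-ratio rescaling, -0.229 after quantile normalization and -0.064 to 0.122 with 1 library left out, and for Pdcd1lg2 -0.045 to 0.205 with 1 left out. In Ly6cloF4/80lo against Ly6chiF4/80lo, Tgfb1 had -0.044 after quantile normalization, and with 1 library left out Cd47 had -0.319 to 0.021, Lgals9 -0.042 to 0.882, Pirb -0.432 to 0.08 and Il10 -0.456 to 0.908. In Ly6cloF4/80hi against Ly6chiF4/80lo, Cd274 had -0.07 after median-ratio rescaling, -0.042 after quantile normalization and -0.042 to 0.125 with 1 left out, Vsir had -0.531 to 0.425 and Il10 -0.29 to 1.074. In Ly6cloF4/80hi against Ly6cloF4/80lo, Cd47 had 0.048 after median-ratio rescaling and -0.163 to 0.055 with 1 left out, Lgals9 -0.197 to 0.385 and Il10 -0.362 to 0.693. The cause was not tested. Il10 in normal Ly6chiF4/80lo, at about 3 reads, is the value most limited by depth. States were compared within subsets by the subset term, and no other pairing could be fitted, since each group has 1 library and no replicate number.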
